A study of Mus musculus with 12 samples.

Results

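Laminins are the cross-shaped glycoproteins of the basement membrane, and 6 of their chains, Lama3, Lama5, Lamb1, Lamb2, Lamb3 and Lamc1, are described here with the integrin chains Itga6, Itgb4 and Itgb1 that bind them. These 9 genes are all of the listed members, and each has a row among the 11834 genes of the deposited table of mouse mammary gland expression. The genes were selected on results of the comparison described here, knockout against wild-type, so their differences between these groups are a description and carry no test. PolyA RNA was measured in lactating mammary glands of C57BL/6 mice, 5 wild-type (WT) and 7 Btn1a1-/- (KO), with 1 library per mouse. Btn1a1 encodes butyrophilin, a protein of the apical membrane of milk-secreting cells that becomes part of the coat of the milk fat globule. All mice were in lactation 1. Glands were taken on day 10 from WT replicates 1, 4 and 5 and from KO replicates 1, 2, 5, 6 and 7, on day 9 from WT replicate 2, on day 11 from WT replicate 3 and KO replicate 4, and on day 8 from KO replicate 3. Per the labels, the mutant line was kept apart from the WT mice and bred in another way, and 2 diets were used without a record of which mouse ate which, so the effects of genotype, of breeding and of diet cannot be told apart.

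A laminin molecule is a trimer of 1 alpha, 1 beta and 1 gamma chain. Lama3 and Lamb3 belong to the laminin that anchors the hemidesmosome, the junction that fixes the base of an epithelial cell to its basement membrane, and the integrin of Itga6 and Itgb4 is its receptor there. Trimers with Lama5 and Lamc1, together with Lamb1 or Lamb2, are the broader laminins of epithelial and vascular basement membranes, and the integrins that contain Itgb1 bind them and link to actin through focal adhesions. In the mammary gland, signals from laminin through Itgb1 are known to be needed for milk protein expression, and the myoepithelial cells that surround the alveoli are a main source of laminin.

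Among the beta chains, which take the same position in the trimer, Lamb3 and Lamb1 stand apart between the groups in opposite directions, so the promoters of all 3 beta chains are shown. Each window holds 300 bases around the start of the gene in RefSeq (build GRCm38.p6, mm10), 5′ to 3′ on the gene's strand. Capitals mark a match on either strand to 1 of the motifs searched: TGANTCA, which AP-1 binds, GGGCGG, the GC box, and TTCNNNGAA, which Stat factors bind. The Lamb3 window is chr1:193301744-193302043, the Lamb1 window chr12:31265043-31265342 and the Lamb2 window chr9:108479612-108479911, all on the plus strand.
Lamb3: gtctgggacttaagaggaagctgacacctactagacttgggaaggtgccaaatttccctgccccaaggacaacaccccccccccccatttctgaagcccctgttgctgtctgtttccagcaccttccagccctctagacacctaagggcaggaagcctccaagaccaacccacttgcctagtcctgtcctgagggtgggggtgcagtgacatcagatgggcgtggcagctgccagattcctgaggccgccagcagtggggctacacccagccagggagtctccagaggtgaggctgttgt
Lamb1: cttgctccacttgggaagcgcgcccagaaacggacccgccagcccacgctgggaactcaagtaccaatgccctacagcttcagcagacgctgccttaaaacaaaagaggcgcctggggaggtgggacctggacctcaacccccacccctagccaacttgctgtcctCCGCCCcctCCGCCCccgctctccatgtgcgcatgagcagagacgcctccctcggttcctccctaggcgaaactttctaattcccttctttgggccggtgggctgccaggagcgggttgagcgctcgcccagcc
Lamb2: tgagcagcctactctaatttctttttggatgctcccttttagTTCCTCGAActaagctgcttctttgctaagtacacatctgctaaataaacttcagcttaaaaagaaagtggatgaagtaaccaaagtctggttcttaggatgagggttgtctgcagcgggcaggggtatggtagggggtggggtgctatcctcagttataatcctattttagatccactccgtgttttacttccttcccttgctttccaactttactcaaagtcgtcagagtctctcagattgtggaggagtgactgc
The Lamb1 window held 2 GC boxes, both on the minus strand and so read as CCGCCC, the Lamb2 window held 1 Stat match, and the Lamb3 window held none of these motifs. GC bases made up 59.3% of the Lamb3 window, 63.7% of the Lamb1 window and 44% of the Lamb2 window. RefSeq windows were matched for 5 of the 9 members, with 6 windows in all, since Lamb3 has a further one at chr1:193301993-193302292 that overlaps the first and also held no match. The window of Lama5 (chr2:180225810-180226109, minus strand) held 4 GC boxes and that of Itgb1 (chr8:128685404-128685703, plus strand) held 1. The unmatched members were Lamc1, Itga6 and Itgb4. Lama3 was not searched, because windows of its chromosome were left out here. They are also left out of the shares over all promoters. Among 32851 promoter windows of the same length, 35.7% held the GC box, 8.3% the Stat motif and 7.81% the AP-1 motif, against 3, 1 and 0 of the 6 member windows. These matches describe letters in a window, and no binding was measured.

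The targeted gene was low in every KO library: Btn1a1 lay between 11.03 and 11.23 log2 CPM in WT and between 5.10 and 6.02 in KO. Values are log2 CPM, counts scaled to a common library total, that the authors had quantile-normalized, so they compare libraries but not genes of different length, and each library sums to between 988803 and 988808 CPM. Total counts are not in the table, so the depth is unknown and no counting interval is given. Where a test is given, it is limma's moderated test of KO against WT, adjusted over all 11834 genes by the Benjamini-Hochberg method, with genes called at an adjusted p under 0.05. By that rule 9.36% of all genes were called, 4.84% as higher in KO and 4.52% as lower, and for 5.43% of genes the groups were fully separate. The median difference over all genes was -0.031 log2.

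Of the 9 members, 2 were called higher in KO (Lamb3 and Itga6), 1 was called lower (Lamb1) and 6 were not called, beside 9.36% of all genes called in either direction. Since the members were chosen by results of this contrast, nothing is read from that count. The groups were fully separate for 2 of the 9, Lamb3 and Lamb1, beside 5.43% of all genes. The median difference over the 9 was 0.23 log2, with a range from -0.61 to 0.83.

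**Figure D1:**
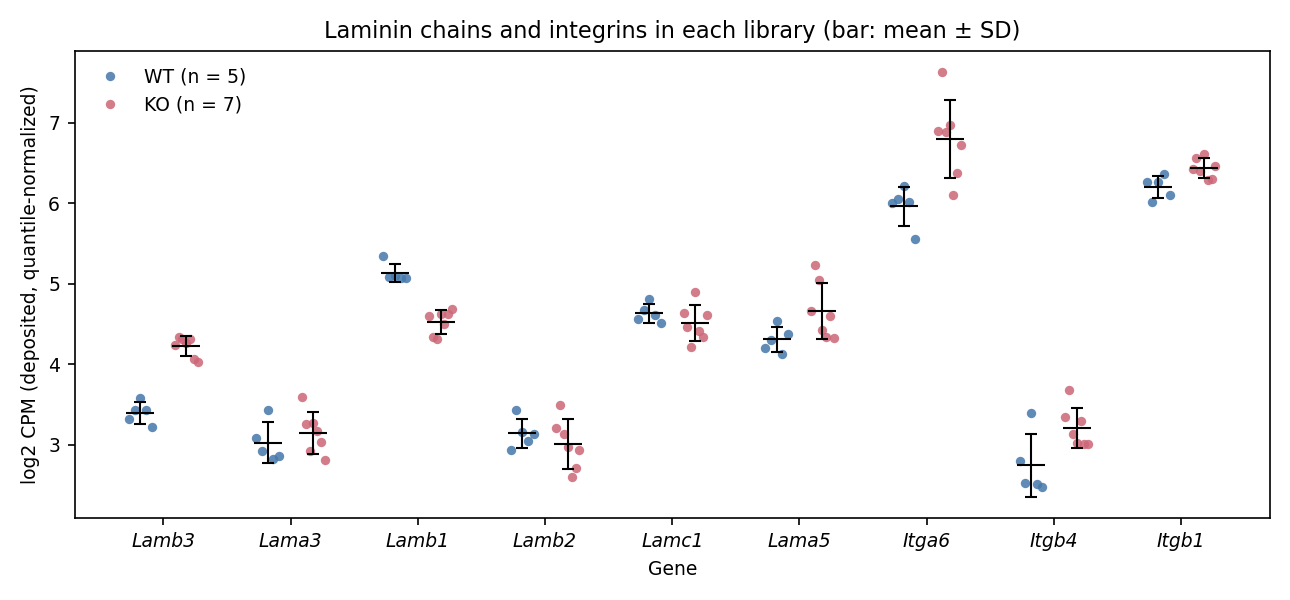
Each point is 1 library, placed by its deposited log2 CPM for the gene on the horizontal axis, in blue for 5 WT and red for 7 KO mice, with black bars for the mean ± SD. The red points of Lamb3 all lie above the blue ones, those of Lamb1 all lie below, and those of Lama3, Lamb2 and Lamc1 overlap the blue ones.

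Lamb3 encodes the beta chain found in the hemidesmosomal laminin. Its WT replicates 1 to 5 held 3.32, 3.43, 3.58, 3.44 and 3.22 log2 CPM, and the 7 KO libraries ran from 4.03 to 4.34 with a median of 4.27. Every KO library lay above every WT library, and both groups were narrow. The mean was 3.40 ± 0.14 in WT (SD, n = 5) and 4.22 ± 0.12 in KO (SD, n = 7), a difference of 0.83 (SE 0.08) or 1.77-fold, which corresponds to 10.5 CPM in WT and 18.7 CPM in KO. By p-value it ranked 2 among the 11834 genes, which is a property of how the members were chosen. The gene spans chr1:193207699-193343878 on the plus strand (mm10, GENCODE M21), and the RefSeq start used for the promoter lies inside that span.

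Lama3, the alpha chain found with Lamb3, did not show the same separation. Its WT replicates held 3.09, 2.93, 3.44, 2.82 and 2.86 log2 CPM, and the KO libraries ran from 2.81 to 3.60 with a median of 3.17. The groups overlapped almost fully, with 1 KO library above and 1 below the whole WT range. The difference was 0.12 log2 (SE 0.14), from 3.03 ± 0.25 (SD, n = 5) to 3.15 ± 0.26 (SD, n = 7), and it turned to -0.08 with the basal marker level as a covariate. Of the exon bases of Lama3, 197 of 10745 are shared with the opposite-strand gene Gm29200, and whether counting used the strand was not given in the sources used here.

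Lamb1 is the beta chain of the broader laminins. WT replicates 1 to 5 held 5.34, 5.09, 5.10, 5.07 and 5.07 log2 CPM, and the 7 KO libraries ran from 4.32 to 4.69 with a median of 4.60. The KO libraries, 7 of 7, lay below the WT range, and WT replicate 1 stood above the other 4. The mean was 5.14 ± 0.12 in WT (SD, n = 5) and 4.53 ± 0.15 in KO (SD, n = 7), a difference of -0.61 (SE 0.08), which is 1.52-fold lower, or 35.1 CPM against 23.1 CPM. Without WT replicate 1 the difference was -0.55. The gene spans chr12:31265234-31329644 on the plus strand.

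Lamb2, the other beta chain of the broader laminins, overlapped between the groups. Its WT replicates held 2.94, 3.43, 3.16, 3.05 and 3.14 log2 CPM, and KO ran from 2.60 to 3.50 with a median of 2.98. The difference was -0.13 log2 (SE 0.14), with 2 KO libraries below the WT range and 1 above it. The gene spans chr9:108479736-108490530 on the plus strand.

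Lamc1 is the gamma chain that pairs with Lamb1 or Lamb2. The values of its WT replicates were 4.56, 4.68, 4.81, 4.61 and 4.51 log2 CPM, and those of KO ran from 4.22 to 4.90 with a median of 4.47. The difference was -0.12 log2 (SE 0.10). Of the 7 KO libraries, 4 lay below every WT library, while KO replicate 4, at 4.90, lay above them all. Lamc1 spans chr1:153218922-153332786 on the minus strand.

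Lama5, the alpha chain of the broader epithelial laminins, was more spread in KO than in WT. WT replicates held 4.20, 4.30, 4.54, 4.13 and 4.38 log2 CPM, and the KO libraries ran from 4.33 to 5.23 with a median of 4.60. Those of KO replicates 2 and 3, at 5.23 and 5.05, stood highest, and 4 of 7 KO libraries lay above the WT range. The difference was 0.35 log2 (SE 0.15). The gene spans chr2:180176373-180225859 on the minus strand.

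Itga6 encodes the alpha chain that pairs with either Itgb4 or Itgb1 to bind laminin. Its WT replicates held 6.00, 6.05, 6.21, 6.01 and 5.56 log2 CPM, and KO ran from 6.10 to 7.63 with a median of 6.89. KO replicate 5, at 6.10, fell inside the WT range, and the other 6 KO libraries lay above it. The mean was 5.97 ± 0.24 in WT (SD, n = 5) and 6.80 ± 0.48 in KO (SD, n = 7), a difference of 0.83 (SE 0.21) or 1.78-fold, so the difference equalled that of Lamb3 while its SE was larger. The call ended in 10 of 24 alternative fits, among them those without WT replicate 1, 2, 4 or 5 and without KO replicate 1 or 4, where the difference stayed between 0.69 and 0.95 over all fits that left out 1 library. Itga6 spans chr2:71745616-71858416 on the plus strand.

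Itgb4, the beta chain that ties the hemidesmosome to intermediate filaments, was the least expressed of the integrin members. WT replicates held 2.80, 2.53, 3.40, 2.52 and 2.48 log2 CPM, and the KO libraries ran from 3.01 to 3.68 with a median of 3.14. WT replicate 3, at 3.40, lay above 6 of the 7 KO libraries, and the other 4 WT libraries lay below all 7. The difference was 0.47 log2 (SE 0.16), and 0.63 without WT replicate 3. The gene spans chr11:115974709-116008412 on the plus strand, and 537 of its 7015 exon bases are shared with the opposite-strand gene B230344G16Rik.

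Itgb1 is the beta chain common to most of the epithelial cell's receptors for laminin and collagen. WT replicates held 6.27, 6.02, 6.27, 6.36 and 6.10 log2 CPM, and KO ran from 6.29 to 6.61 with a median of 6.43. The groups overlapped at their edges, with 5 of 7 KO libraries above the WT range. The difference was 0.23 log2 (SE 0.08) or 1.17-fold, the smallest of the integrin members. It spans chr8:128685654-128733200 on the plus strand.

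The balance between chains of 1 position was followed within each library, on the scale of log2 CPM per kilobase of exon, where genes of different length can be set side by side. Lamb3 minus Lamb1 was -1.44, -1.08, -0.94, -1.04 and -1.27 in the WT replicates and ran from -0.08 to 0.58, with a median of 0.23, in KO. Lamb1 was thus the more abundant beta chain in every WT library, 2.22-fold above Lamb3 on average, while in KO Lamb3 stood 1.21-fold above Lamb1 and only KO replicate 7 had more Lamb1. With the length of the longest transcript in place of all exons, Lamb1 stayed slightly ahead in KO (2.00 against 1.94 log2 CPM per kilobase), so which chain leads in KO depends on the length used and the move between groups does not.

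Lamb1 minus Lamb2, the other pair of beta chains, overlapped between the groups, from 0.96 to 1.70 in WT and from 0.14 to 1.20 in KO. The alpha chains overlapped as well. Lama3 minus Lama5 ran from -1.43 to -1.02 in WT and from -2.04 to -0.98 in KO. Among the hemidesmosomal chains, Lamb3 gained on Lama3, with Lamb3 minus Lama3 between 0.84 and 1.32 in WT and between 1.34 and 2.09 in KO. For the receptor, Itga6 minus Itgb4 ran from 2.45 to 3.16 in WT and from 2.44 to 3.59 in KO, and Itga6 minus Itgb1 from -1.68 to -1.12 in WT and from -1.34 to -0.07 in KO. These values are differences of genes described above and add no separate evidence.

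**Figure D2:**
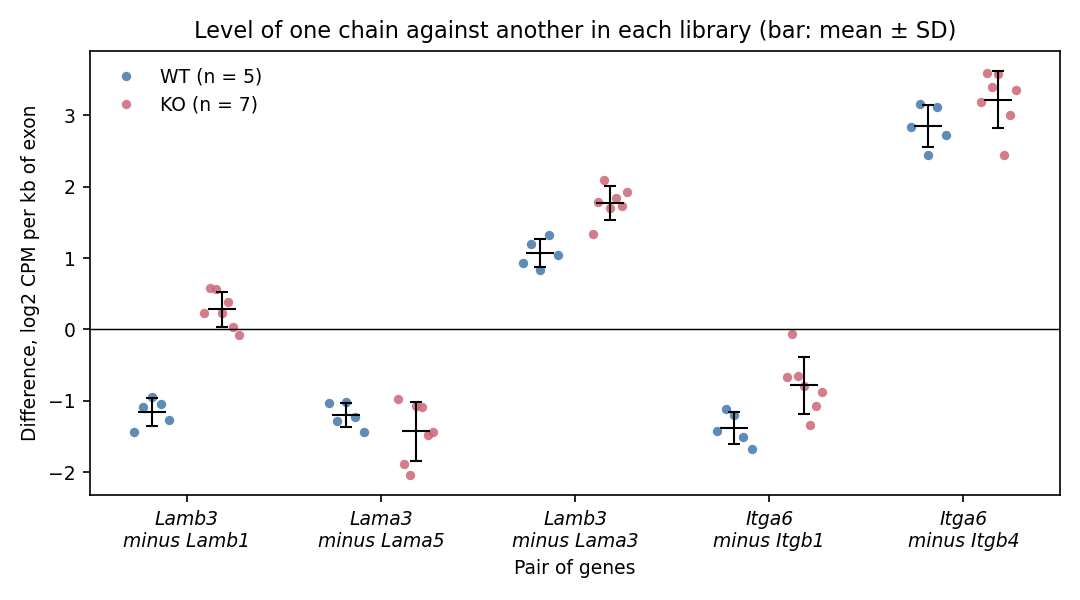
Each point is the difference between the named pair of genes in 1 library, in log2 CPM per kilobase of exon, in blue for 5 WT and red for 7 KO mice, with the mean ± SD. The groups separate fully for Lamb3 minus Lamb1 and Lamb3 minus Lama3, and overlap for Lama3 minus Lama5, Itga6 minus Itgb1 and Itga6 minus Itgb4.

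In WT glands the order of the members per kilobase of exon, as mean log2 CPM per kilobase, was Itgb1 (4.18), Itga6 (2.79), Lamb1 (1.83), Lamc1 (1.59), Lama5 (0.80), Lamb3 (0.67), Lamb2 (0.54), Itgb4 (-0.06) and Lama3 (-0.40). The neighbours Lama5 and Lamb3, Lamb3 and Lamb2, and Itgb4 and Lama3 did not differ beyond their spread, taken as the larger SD of the pair, and the other neighbours did. In KO the order in the same unit was Itgb1 (4.41), Itga6 (3.62), Lamb3 (1.50), Lamc1 (1.47), Lamb1 (1.22), Lama5 (1.15), Lamb2 and Itgb4 (0.41 each) and Lama3 (-0.27). There Lamb3 and Lamc1, Lamb1 and Lama5, and Lamb2 and Itgb4 lay within their spread. So Lamb3 went from place 6 to place 3 and Lamb1 from place 3 to place 5. With the longest transcript, Lamb3 went from place 5 to place 4 and Lamb1 held place 3, and in KO Itga6 came 0.19 log2 above Itgb1, a pair within its spread, so the sign of Itga6 minus Itgb1 in KO depends on the length used. By both lengths, Lama3 was the lowest member in both groups, below its hemidesmosomal partner Lamb3. The 2 lengths of Lama3 were nearly the same (10745 and 10548 bases). Its other annotated transcript was not used alone, so whether the 2 chains are unequal was not settled.

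**Figure D3:**
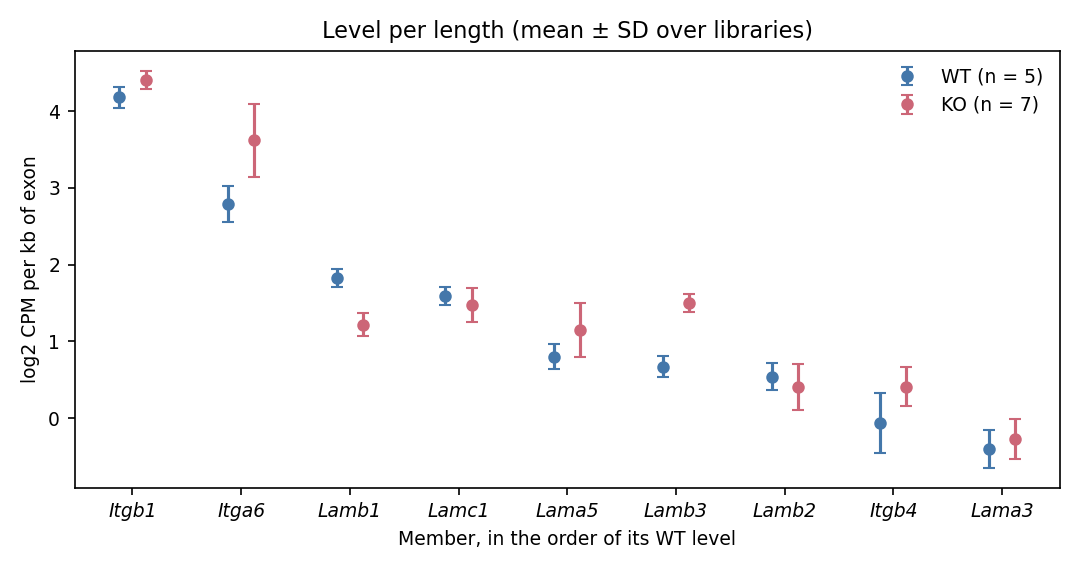
Points give the mean log2 CPM per kilobase of exon of each member and bars its SD, in blue for 5 WT and red for 7 KO mice, with the members in the order of their WT level. Itgb1 and Itga6 lead in both groups, Lama3 is lowest in both, and Lamb3 lies level with Lamb2 in WT and with Lamc1 in KO.

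The other laminin chains were tested as genes that were not members. Of the 3 analysed, limma called none, beside 9.36% of all genes, and 1 (Lama1) had an unadjusted p under 0.05. Their median difference was -0.17, beside -0.031 over all genes. Lama1, an alpha chain of early basement membranes, ran from 3.19 to 3.88 log2 CPM in WT and from 2.61 to 3.52 in KO, with a difference of -0.43 (SE 0.18; limma adjusted p = 0.144). Lama2, the muscle and nerve alpha chain, differed by -0.14 (adjusted p = 0.658), and Lama4, the alpha chain of vessels and fat, by -0.17 (adjusted p = 0.505). Lamc3 was not analysed here.

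Of 10 genes for further hemidesmosome parts and laminin receptors, 2 rose (20%), beside 4.84% of all genes called higher. None fell and 8 did not pass, with a median of 0.13. Bcam, the Lutheran glycoprotein that binds Lama5, held 1.96, 2.53, 2.73, 1.84 and 1.80 log2 CPM in WT and ran from 2.65 to 3.90 in KO, with 4 of 7 KO libraries above the WT range. It rose by 0.83 (SE 0.24; limma adjusted p = 0.0437), and the call ended in 12 of 24 alternatives, among them those without WT replicate 1, 2, 4 or 5 or KO replicate 1, 4 or 7 (adjusted p up to 0.106). Itga3, the other alpha chain that joins Itgb1 to bind the hemidesmosomal and the Lama5 laminins, held 1.90, 2.31, 2.36, 2.00 and 2.49 in WT and ran from 2.42 to 3.05 in KO. It rose by 0.46 (SE 0.14; limma adjusted p = 0.049), at the edge of the threshold, and lost the call in 17 of 24 alternatives, 9 of them fits without 1 library (WT replicate 1, 2, 3 or 4 or KO replicate 1, 2, 3, 4 or 5), with adjusted p up to 0.13 there.

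The listed hemidesmosome parts other than its integrin chains did not pass the test. The transmembrane collagen Col17a1 differed by 0.12 log2 (SE 0.08; limma adjusted p = 0.381), the plakins Dst and Plec, which hold intermediate filaments, by -0.05 (adjusted p = 0.741) and -0.08 (adjusted p = 0.64), and the tetraspanin Cd151, a partner of laminin-binding integrins, by 0.15 (adjusted p = 0.133). Values of Col17a1 ran from 3.45 to 3.79 log2 CPM in WT and from 3.61 to 3.96 in KO. Among non-integrin laminin receptors, dystroglycan (Dag1) differed by -0.02 (adjusted p = 0.901), and the syndecans Sdc1 and Sdc4 by 0.15 (adjusted p = 0.392) and -0.17 (adjusted p = 0.31). Itga7, the muscle laminin receptor, differed by 0.14 (adjusted p = 0.613).

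**Figure D4:**
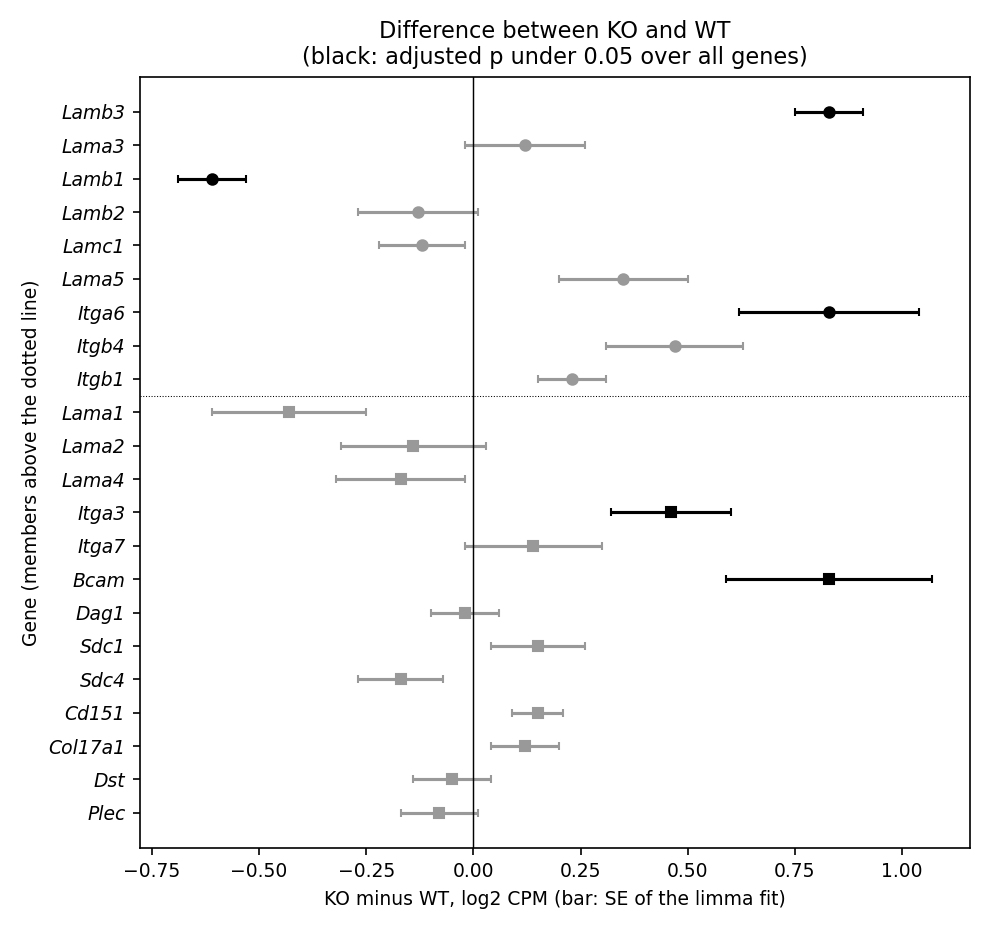
Points give KO minus WT in log2 CPM and bars the SE of the limma fit over 12 libraries, with members as circles above the dotted line and tested genes as squares below it, in black where the gene was called over all genes. Lamb3, Itga6 and Bcam lie at 0.83, Itga3 at 0.46 and Lamb1 at -0.61, while the hemidesmosome parts Col17a1, Dst, Plec and Cd151 lie between -0.08 and 0.15.

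Of 17 other components of the basement membrane, 1 rose (5.88%), which is near the 4.84% of all genes called higher. None fell and 16 did not pass, with a median of 0.08. Smoc2, a calcium-binding matricellular protein, rose from a WT range of 2.22 to 2.65 log2 CPM to a KO range of 2.34 to 3.37 (0.52, SE 0.15; limma adjusted p = 0.0404), a call that 14 of 24 alternatives ended, 9 of them by leaving out 1 library (WT replicate 1, 2, 3 or 5 or KO replicate 1, 2, 3, 4 or 5, adjusted p up to 0.106). The collagen IV chains Col4a5 and Col4a6 differed by 0.76 (SE 0.23; adjusted p = 0.0583) and 0.63 (SE 0.19; adjusted p = 0.0555), with 4 of 7 KO libraries above the WT range for each.

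Of 14 other integrin chains, 1 rose (7.14%), beside 4.84% of all genes called higher. None fell and 13 did not pass, with a median of 0.09. Itga5, the fibronectin receptor chain, held 2.06, 2.61, 2.62, 2.40 and 2.37 log2 CPM in WT and ran from 2.60 to 3.59 in KO, with 6 of 7 KO libraries above the WT range. It rose by 0.69 (SE 0.18; limma adjusted p = 0.0271), and the call ended without WT replicate 1, 4 or 5 or KO replicate 1 (adjusted p up to 0.0792), with basal (0.585) or muscle markers (0.0998) as a covariate and at a threshold of 0.01. Itga1, a collagen and laminin receptor chain, differed by -0.33 (SE 0.11; adjusted p = 0.0673), and Itga9 by 0.32 (SE 0.11; adjusted p = 0.0871).

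Inside the cell, 2 of 20 integrin adaptors and focal adhesion genes rose (10%), beside 4.84% of all genes called higher. None fell and 18 did not pass, and the median of the 20 was -0.06. Zyx, the zyxin of focal adhesions and stress fibres, ran from 2.88 to 3.50 log2 CPM in WT and from 3.65 to 5.15 in KO. All 7 KO libraries lay above the WT range, and Zyx rose by 0.98 (SE 0.22; limma adjusted p = 0.0182) or 1.97-fold. Actn1, the alpha-actinin that bundles actin at adhesions, ran from 3.49 to 3.72 in WT and from 3.76 to 4.28 in KO and rose by 0.40 (SE 0.10; limma adjusted p = 0.0204), again in 7 of 7 KO libraries. Both calls ended without WT replicate 1 (adjusted p = 0.052 for Zyx and 0.0582 for Actn1), with basal markers as a covariate (0.35 and 0.465), with muscle markers as a covariate (0.0858 and 0.0908) and at a threshold of 0.01, and that of Zyx also with day 10 alone (0.114). Parva, the parvin that links integrins to actin, differed by 0.25 (SE 0.09; adjusted p = 0.0926).

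Among 13 proteases and inhibitors that act on laminins and the basement membrane, 2 rose (15.4%), beside 4.84% of all genes called higher. None fell and 11 did not pass, with a median of 0.24. Timp1, a secreted inhibitor of matrix metalloproteinases, held 3.85, 3.95, 3.22, 3.76 and 3.88 log2 CPM in WT and ran from 4.34 to 4.91 in KO. Every KO library lay above every WT library, and Timp1 rose by 0.93 (SE 0.13; limma adjusted p = 0.00188) or 1.9-fold, a call kept in all 24 alternatives. Htra1, a secreted serine protease, rose by 0.60 (SE 0.18; limma adjusted p = 0.0471), and 15 of 24 alternatives ended that call, 9 of them by leaving out 1 library (WT replicate 1, 2, 4 or 5 or KO replicate 1, 2, 4, 5 or 7, adjusted p up to 0.11). Adam10, a membrane sheddase, differed by 0.24 (SE 0.07; adjusted p = 0.0533). Over the 6 lists together, 8 of 77 genes (10.4%) rose and none fell, beside 4.84% of all genes called higher and 4.52% called lower, and the median difference of the 77 was 0.08. The lists were chosen with earlier results of these data known, so the share is a description.

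Markers of the cell types that make and use these chains also differed between the groups, and in bulk tissue fewer cells of a type and less RNA per cell cannot be told apart. The mean of 10 basal and myoepithelial markers ran from 4.83 to 5.27 log2 CPM in WT and from 5.04 to 5.65 in KO, with 6 of 7 KO libraries above the WT range. Of the 10, 6 rose (Krt14, Krt17, Acta2, Mylk, Cnn1 and Tagln) and Krt5, Myh11, Oxtr and Trp63 did not pass. Krt14, the basal keratin, rose by 0.55 (SE 0.15; limma adjusted p = 0.032), while Krt5, its partner keratin, differed by 0.32 (SE 0.17; adjusted p = 0.245).

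With the basal marker mean as a covariate, Lamb3 differed by 0.81, Lamb1 by -0.62, Itga6 by 0.59 and Itgb4 by 0.25. With it, 13 of all 11834 genes were still called in place of 1108. The basal mean itself lay above the WT range in 6 of 7 KO libraries, so this fit cannot separate it from genotype. The size of the difference of Lamb3 and of Lamb1 was nearly the same with that covariate as without it, although of the members Lamb3 alone was still past the threshold, and those of Itga6 and Itgb4 were smaller. Bcam, at 0.30, Itga5, at 0.21, Zyx, at 0.49, Actn1, at 0.16, Itga3, at 0.24, and Htra1, at 0.21, were smaller too, whereas Timp1 differed by 1.07 (adjusted p = 0.0281) and Smoc2 by 0.53, with its call lost (adjusted p = 0.258). Within groups, the correlation of a member with the basal marker mean over 12 libraries was 0.08 for Lamb3, 0.07 for Lamb1, 0.34 for Itga6 and 0.40 for Itgb4.

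Among the luminal secretory markers, Krt8 and Epcam rose and the other 5 did not pass, and the mean of the 7 ran from 10.29 to 10.43 in WT and from 10.42 to 10.59 in KO. The milk protein genes Csn2 and Wap sat at 17.27 and 16.54 log2 CPM in every library, since quantile normalization gives genes of equal rank equal values. Both lay far above every member, and milk genes of this kind mark the lactating gland that the labels name. The correlation with the luminal mean within groups was 0.66 for both Itga6 and Itgb4, and Csn2 and Wap add no variation to that mean. Itga6 also had r = 0.53 with the endothelial and 0.49 with the fibroblast mean, against -0.01 and 0.11 for Itgb4. Endothelial markers were lower in KO for all 7 genes by value, with Kdr alone called (-0.57, SE 0.14; limma adjusted p = 0.0234), and their mean ran from 2.49 to 3.15 in WT and from 2.19 to 2.93 in KO. Lamc1 followed the endothelial mean (r = 0.70) and the fibroblast mean (r = 0.86) within groups, and Lamb1 did not (-0.05 and 0.05). These ties of Lamc1 were not particular to those lists, with r = 0.66 for adipocyte, 0.55 for basal and 0.53 for muscle markers. For luminal and macrophage markers and for Sox10 its values were 0.13, 0.20 and -0.40.

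Of 5 macrophage markers, 3 rose (Cd68, C1qa and C1qb), with a mean from 2.64 to 3.02 in WT and from 2.78 to 3.37 in KO. None of 6 fibroblast markers passed, though all 6 were higher in KO by value (mean 3.88 to 4.44 in WT and 3.97 to 5.45 in KO). Nor did any of 7 skeletal muscle markers, all 7 higher by value with a median of 1.17 (mean 2.64 to 5.26 in WT and 3.08 to 7.08 in KO, 5 of 7 KO libraries above the WT range), or the Schwann cell marker Sox10 (5.41 to 6.37 in WT and 5.11 to 5.93 in KO). Of 5 adipocyte markers 1 rose, the hormone gene Lep (0.95, SE 0.17; limma adjusted p = 0.00522), and their mean ran from 4.76 to 5.49 in WT and from 4.84 to 5.56 in KO. The muscle mean varied most between libraries, and with it as a covariate Lamb3 differed by 0.77, Lamb1 by -0.57, Itga6 by 0.80 and Smoc2 by 0.29 (adjusted p = 0.142). The part of each cell type in the differences of the members, basal and muscle included, was not tested. Whether a marker was absent cannot be read from quantile-normalized values, and the lowest WT mean among the markers reported was 1.22 log2 CPM, for Cd68.

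How the members varied together was described after the mean of each group was removed, so that the difference between KO and WT does not enter. Over 12 libraries, 30 of 36 pairs of members had a correlation above 0, with a median Pearson r of 0.30. The libraries share their normalization and may differ in depth and cell content, so these values carry no test. The pairs most alike were Lamb2 with Itga6 (r = 0.82), Lama3 with Itgb4 (r = 0.73) and Lamb2 with Lama5 (r = 0.72). The integrin partners Itga6 and Itgb4 had r = 0.51, Itga6 and Itgb1 0.64, and Lamb3 and its partner Lama3 0.54.

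Of the 6 pairs below 0, 5 involved Lamb1, and the other was Lamc1 with Lama5 (r = -0.32). Lamb1 ran opposite to Lama5 (r = -0.73), Lamb3 (r = -0.55) and Lamb2 (r = -0.52), so that the libraries of a group with more Lamb1 tended to hold less of those 3. Within the 7 KO libraries alone these values were -0.85, -0.75 and -0.51, and those of the 3 most alike pairs were 0.96, 0.52 and 0.79. Some libraries were high for many members together: WT replicate 3 was the highest WT library for 6 of the 9 and KO replicate 2 the highest KO library for 5 of the 9, while WT replicate 5 was lowest for 5 and KO replicate 7 for 4.

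**Figure D5:**
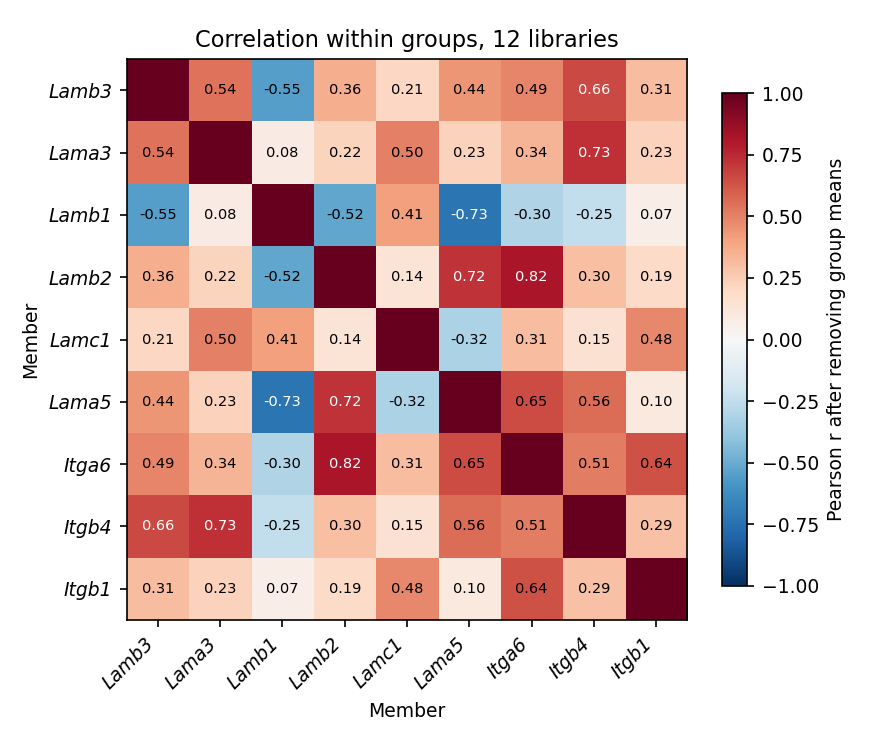
Each cell gives the Pearson correlation of a pair of members over 12 libraries after the mean of each group was removed, from blue at -1 to red at 1. The row of Lamb1 holds 5 of the 6 blue pairs, down to -0.73 with Lama5, the other being Lamc1 with Lama5 at -0.32, and the darkest red off the diagonal is Lamb2 with Itga6 at 0.82.

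The gene most like each member in this measure was sought among 9738 genes whose mean reached 1 log2 CPM. It was Cryzl1 for Lamb3 (r = 0.89), Lpo for Lama3 (0.87), Ube4a for Lamb1 (0.91), Atox1 for Lamb2 (0.93), Gpx8 for Lamc1 (0.93), Napepld for Lama5 (0.89), Sept11 for Itga6 (0.94), Gm15754 for Itgb4 (0.91) and Cd164 for Itgb1 (0.92), each over 12 libraries. Members were left out of that search. Each r is the highest of 9738 and so is raised by the search itself, and these values carry no test.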

How the data were processed

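PolyA RNA from the lactating mammary gland of 12 mice (5 WT, 7 KO) was measured with 1 library per mouse. Per the labels, libraries came from an Illumina TruSeq mRNA kit and were sequenced from both ends. The submitters' processing notes name limma 3.34.5, RSEM 1.3.0, STAR 2.5.2b, Trimmomatic 0.33 and bcl2fastq 2.17, and the builds mm10 and hg19 without a role. Annotation and the filter on low genes were not given in the sources used here. Deposited by the authors were log2 CPM per library, already quantile-normalized, with their group means and SDs and their log2 fold change. Among the deposited columns are also 2 scores, a signed fold change and the moderated t statistic, and p-values with adjusted p-values.

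The deposited log2 values were fitted by genotype with limma 3.58.1 (R 4.3.3), using eBayes with trend and robust options, with two-sided p-values adjusted over 11834 genes by the Benjamini-Hochberg method. SE is that of the moderated fit, and SD is between libraries. The procedure was tested on simulated data. Levels per kilobase used the union of exons in GENCODE M21 (mm10), with the longest transcript as an alternative. Marker means are means of log2 CPM. Promoters came from RefSeq. Joins and figures used Python 3.11.15 and matplotlib 3.10.9.

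The members and the gene lists were chosen with earlier results of these data known. Named were all members, all genes of the lists of other laminin chains and of hemidesmosome and laminin receptors, the 3 genes of smallest adjusted p of each other list, up to 3 genes of each marker list and the gene most correlated with each member. Genes outside that rule (called markers, some other markers and Mmp3) were chosen after their values were seen. Some listed genes are not reported here and enter no list count. Alternatives were a replicate block, lactation day as a covariate, day 10 alone, median centring, cyclic loess, a stricter filter, plain eBayes, library weights, a threshold of 0.01, the authors' statistics, basal or muscle markers as a covariate and leaving out each library. The main fit used all 12 libraries. The replicate block left out KO replicates 6 and 7, whose numbers have no WT library.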

Additional observations from a re-analysis of the deposited data

Results flagged for a closer look

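Among 68 groups of 5 or 7 values, from 34 genes, 2 held a library that stood apart by Dixon's ratio of its gap to the range, where chance alone marks about 1 in 20. Lamb1 in WT replicate 1 was 5.34 log2 CPM, the highest of 5, with the next at 5.10, so the gap took 0.887 of the range. Timp1 in WT replicate 3 was 3.22 log2 CPM, the lowest of 5, with the next at 3.76 and a gap of 0.744 of the range. Over the fits that left out 1 library, the difference ran from -0.63 to -0.55 for Lamb1 and from 0.80 to 0.98 for Timp1. The groups do not overlap for either gene, so leaving out 1 library could not turn the direction.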

How the results depend on the processing

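Of the 9 members, 3 were called with all libraries and 3 with the replicate block. With the basal marker covariate 1 was called (Lamb3), and 2 to 4 were called when 1 library was left out, the 4 without WT replicate 3. Over 24 alternatives the difference ran from 0.77 to 0.90 for Lamb3 and from -0.66 to -0.55 for Lamb1, which describes members chosen by this contrast and supports nothing. Of the 77 other pathway genes, 8 were called with all libraries and 10 with the replicate block. The count was 4 with day 10 alone, 4 with eBayes without trend and robust options, and 1 (Timp1) at a threshold of 0.01, with the basal covariate and with the muscle covariate. It ran from 1 (Timp1, without WT replicate 1) to 11 (without KO replicate 6) when 1 library was left out, was 4 without WT replicate 2 or 4, 5 without WT replicate 5 or KO replicate 2 or 4, and 3 without KO replicate 1. The cause was not tested. Over all genes, 1108 were called, 1090 with the replicate block, 268 with day 10 alone, 290 with the muscle covariate, 249 at a threshold of 0.01, 13 with the basal covariate, and from 559 (without WT replicate 1) to 1327 (without KO replicate 6).

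Small differences changed sign in single settings: Lama3 (-0.08) and Dst (0.04) with the basal covariate, Plec with day 10 alone (0.01), and Dag1 with the replicate block (0.00), day 10 alone (0.02) and without WT replicate 2 (0.02, in a range from -0.06 to 0.02 over fits that left out 1 library). With the replicate block Itga3 lost its call (adjusted p = 0.0527), while Col4a5, Adam10 and Mmp3 gained one. That fit also lacked KO replicates 6 and 7, so the part of the block itself cannot be told apart. Without a block, Col4a5 was also called without KO replicate 6 (limma adjusted p = 0.0279) or 7 (0.0482), and Adam10 without KO replicate 7. Replicate numbers did not pair the mice: the correlations of same-numbered libraries were -0.162, 0.00218, -0.17, 0.213 and 0.0791, and only WT replicate 4 correlated best with its own number. Per kilobase of the longest transcript, the WT levels of Itga6 (3.86), Lamb1 (2.60) and Lamb3 (1.11) moved by more than 1 SD. No pseudocount enters values already on a log2 scale, and a looser filter could not be had. Depth is unknown, so counting error could not be separated from differences between mice.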
